A study of Mus musculus with 2 samples.

Results

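The extracellular matrix genes of the mouse testis, together with the genes that modify and degrade matrix, were examined in wild type and UBR2-/- animals. A gene was a member if its symbol in the platform annotation began with the name of a collagen, a laminin, a nidogen, perlecan (Hspg2), fibronectin, a fibrillin, a fibulin, elastin, SPARC, a small proteoglycan, matrix Gla protein, a thrombospondin, tenascin C, versican, a lysyl oxidase, a matrix metalloproteinase, a TIMP, an ADAMTS protease or a collagen hydroxylase. The rule used names and no measured value, and it found 174 probe sets of 110 genes among 20380 probe sets of 12393 genes with 1 symbol. Total RNA of whole testes from 17 day old mice on a mixed 129SV and C57BL background was labelled with biotin and read on Affymetrix mouse genome 430A 2.0 arrays, on which a set of short probes gives 1 signal for a transcript. The groups were wild type and UBR2-/-, homozygous for loss of the ubiquitin ligase UBR2, with 1 array for each genotype. For each genotype the labels name 2 testes from different animals of the same litter, and the sources used here do not say whether their RNA was pooled. A single array for each genotype leaves no replicates and no test, so every difference describes these 2 arrays.

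In the testis, a basement membrane of type IV collagen, laminins, nidogens and perlecan surrounds each seminiferous tubule and is built by Sertoli cells inside the tubule and peritubular myoid cells around it. Fibril-forming collagens, elastic fibres and small proteoglycans fill the tubule wall and the interstitium between the tubules. Hydroxylases and lysyl oxidases make collagen stable and cross-linked, while metalloproteinases and ADAMTS proteases cut matrix and TIMP proteins inhibit them.

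Signals are given as wild type first, then UBR2-/-. The median signal over all probe sets was 48.7 and 48.75. The targeted gene Ubr2 had 57.2 and 14.3 in its 1 probe set, which puts UBR2-/- lower by at least 2.32-fold. Ratios are log2 of UBR2-/- over wild type signal, so a log2 ratio of 1 is 2-fold. Signals below the 40th percentile of an array (24.4 for wild type, 24.7 for UBR2-/-) were raised to that floor first. The brightest probe set stood for its gene, and a gene was compared when its mean signal reached 24.55, which left 8091 genes, 68 of them matrix genes. The only measure of error within these arrays was the disagreement between probe sets of the same gene, which gave an SD of the log2 ratio of 0.27 in the dim, 0.20 in the intermediate and 0.16 in the bright class of genes (965, 964 and 965 genes with such pairs). It leaves out differences between animals and between arrays. Bacterial and phage control transcripts had a median log2 ratio of 0.35, and scaling on them would move every gene by -0.35, so matrix genes are described relative to the median of all compared genes (the overall median), which was 0.07 on the authors' scale.

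Matrix genes were, as a group, slightly higher on the UBR2-/- array than the bulk of genes, by a small amount spread over most members. The median log2 ratio of the 68 compared genes was 0.34 (quartiles 0.14 and 0.44), which is 0.27 above the overall median, and with control transcript scaling it was -0.0056 against -0.28 for all genes. Above 0 lay 58 of the 68, against 58.9% of all genes. Above the overall median lay 56 of the 68 (82.4%), where 50% of all genes lie by definition, and 12 lay below it. Past 2-fold were 0 matrix genes in either direction, against 0.346% of all 8091 genes at least 2-fold higher and 3.52% at least 2-fold lower. At least 1.5-fold higher were 4 matrix genes (5.88%), Loxl3, Col15a1, P4ha2 and Lama2, against a background of 4.25%. At least 1.5-fold lower was 1 (1.47%), Col16a1, against a background of 7.71%. The share past 1.5-fold upward was near the background. The difference from other genes lay in the range between the median of all genes and 1.5-fold, which held 52 of the 68 matrix genes (76.5%) and 45.7% of all genes. Scaling on control transcripts turned the split of 4 higher and 1 lower into 0 higher and 5 lower of 69 matrix genes. The 5 were Col16a1, Col20a1, Col4a4, Fbn2 and Thbs3. The shares of all genes under that scaling were 0.47% higher and 19.98% lower, so the matrix share lower was below that of all genes. Such scaling shifts all genes alike, so the position of matrix genes relative to the overall median hardly depends on it. A lower floor, at the 25th percentile, gave 7 higher and 6 lower of 90 matrix genes. The shares of all genes at that floor were near these, with 7.04% higher and 8.90% lower.

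**Figure D1:**
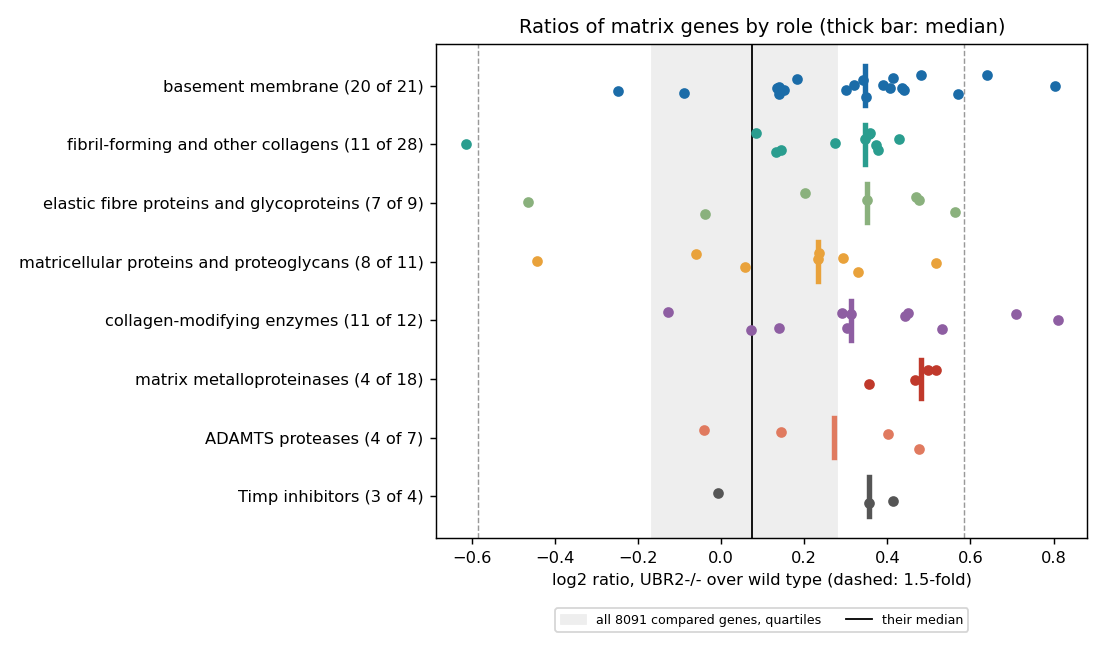
Each point is the log2 ratio (UBR2-/- over wild type, x axis) of 1 compared matrix gene, arranged by role with the number compared of all members, the thick bar is the median of the role, the grey band holds the quartiles of all 8091 compared genes and the black line their median of 0.07. The medians of all 8 roles lie to the right of the black line, and Col16a1 is the 1 point left of the lower 1.5-fold line, and scaling on control transcripts would move all points and the line together by -0.35.

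Basement membrane genes were read almost completely, with 20 of 21 members compared, and 18 of the 20 exceeded the overall median. Their median log2 ratio was 0.35, with a range from -0.25 to 0.80. Among the laminins, the trimeric proteins that cells bind to, Lama2 and Lama1 had the highest ratios. Lama2, the alpha chain of muscle-type basement membranes, had signals of 379.6 and 591.3 (log2 ratio 0.64, 1.56-fold). Lama1, the alpha chain of early and tubular basement membranes, had 149.3 and 221.8 (0.57). The beta and gamma chains that join both of them, Lamb1 and Lamc1, went from 433.4 to 574.8 and from 118.4 to 157.7, with a log2 ratio of 0.41 each. Lamb1 was read by 3 probe sets, at 0.41, 0.26 and 0.16. Lama4, found around vessels, Lama5 and Lama3 had 0.35, 0.30 and 0.15, while Lamb2 had 0.14. Lamc3 was the 1 laminin below 0, at -0.09 with signals of 111 and 104.3, and its other probe set had 0.20. All 5 alpha chains, both compared beta chains and 1 of 2 gamma chains thus exceeded the overall median.

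The nidogens, which link the laminin and collagen IV networks, had 0.44 for Nid2 (73.4 and 99.5) and 0.18 for Nid1 (350 and 397.2). Hspg2, which encodes the heparan sulfate proteoglycan perlecan, had signals of 168.5 and 210.3 and a log2 ratio of 0.32. Col18a1, a basement membrane collagen from which endostatin is cut, had 500.5 and 634.3 (0.34). Its relative Col15a1, which lies where the basement membrane meets the interstitium, had the highest ratio of all structural members, with signals of 45.2 and 78.9 (0.80, 1.75-fold), read by 1 dim probe set.

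The 6 chains of type IV collagen, the sheet-forming collagen of basement membranes, are encoded by 3 pairs of neighbouring genes on opposite strands. In their brightest probe sets, the members of each pair differed from each other by 0.29 to 0.64 on the log2 scale. The SD of 1 probe set was 0.16 to 0.27, so the smaller differences are near the disagreement between probe sets of the same gene. Col4a1 and Col4a2, whose products make the most widespread collagen IV molecule, had signals of 500.4 and 549.1 (0.13) and of 369.7 and 516.1 (0.48). Both probe sets of Col4a1 were low in the range, at 0.10 and 0.13, while Col4a2 was read by 1 probe set. Col4a3 had 180.5 and 236.3 (0.39) and its neighbour Col4a4 had 51.4 and 43.3 (-0.25), the lowest ratio among basement membrane genes. The X-linked Col4a5 and Col4a6 had 0.14 (218.1 and 240.2) and 0.43 (33.6 and 45.4). The dimmer probe set of Col4a5 had 0.38, close to Col4a6. The median of the 6 chains was 0.26, or 0.19 above all genes.

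The start regions of Col4a1 and Col4a2 are shown because both genes start within the same short stretch of chromosome 8. In the RefSeq windows (GRCm38.p6, 250 bases before to 50 after the annotated start, 5′ to 3′ on each gene's own strand), the annotated starts lie 21 bases apart, and the 78 bases held by both windows, chr8:11312777-11312854, are in capitals and read as reverse complements of each other. Col4a1 lies at chr8:11312777-11313076 on the minus strand and Col4a2 at chr8:11312555-11312854 on the plus strand.
Col4a1: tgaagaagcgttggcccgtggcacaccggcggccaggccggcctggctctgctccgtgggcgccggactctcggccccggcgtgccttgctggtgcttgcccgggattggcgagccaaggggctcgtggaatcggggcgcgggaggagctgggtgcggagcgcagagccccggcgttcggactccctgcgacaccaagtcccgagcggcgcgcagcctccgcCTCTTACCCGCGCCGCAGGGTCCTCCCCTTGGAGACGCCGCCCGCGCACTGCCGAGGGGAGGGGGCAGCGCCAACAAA
Col4a2: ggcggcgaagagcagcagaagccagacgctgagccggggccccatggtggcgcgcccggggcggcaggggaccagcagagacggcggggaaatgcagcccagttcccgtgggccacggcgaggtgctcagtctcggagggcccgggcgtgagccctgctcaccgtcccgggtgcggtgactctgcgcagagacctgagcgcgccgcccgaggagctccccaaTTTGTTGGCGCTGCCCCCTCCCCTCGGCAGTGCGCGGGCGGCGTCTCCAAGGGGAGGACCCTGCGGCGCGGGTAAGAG
Both windows are rich in G and C (74% and 73.7%, against a median of 61% over the windows of all compared genes). Each holds 1 match to CCAAT, and 1 and 3 matches to GGGCGG, counted on both strands, while TATAAA and TGANTCA had no match in either. Over 32851 promoter windows, 37.4% hold CCAAT, 35.7% GGGCGG, 13.6% TATAAA and 7.81% TGANTCA. Over the 8629 windows of all compared genes these shares were 37.8%, 64.2%, 6.93% and 4.77%, so GGGCGG is common among them. A match says only that the letters occur.

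Outside the basement membrane, 11 of 28 collagen genes were compared, and 10 of these exceeded the overall median. The median was 0.35. Col3a1, a fibril-forming collagen of soft tissue, had signals of 2273.9 and 2943.8 (0.37), though its dimmer probe set had 0.04. Col1a2 and Col1a1 encode the chains of type I collagen, and they had 1115 and 1501.4 (0.43) and 265.1 and 281 (0.08), a difference of 0.35. The other probe set of each had 0.22 and 0.20, so the chains lay close there. The type V chains, which control fibril width, had 0.38 for Col5a1 and 0.14 for Col5a2, whose other probe set, with signals of 206.7 and 147.2, had -0.49. The 3 chains of type VI collagen, which forms beaded filaments around cells, had similar ratios. Col6a1 had 434.2 and 556.6 (0.36), Col6a2 had 425.6 and 541.3 (0.35) and Col6a3 had 277.7 and 335.8 (0.27). Col7a1, the collagen of anchoring fibrils, was close to the floor at 26.9 and 34.4 (0.35), and Col14a1, a collagen that binds to fibrils, had 53.2 and 58.3 (0.13).

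Col16a1, another collagen that associates with fibrils, was the member with the lowest ratio, with signals of 194.7 and 127.2 (-0.61, 1.53-fold lower). Its 1 probe set was of a kind that can bind several transcripts of a gene. Leaving out such probe sets removes Col16a1, and a pseudocount in place of the floor brings it within 1.5-fold. Its start region is set beside that of Lama2, the brighter of the basement membrane members past 1.5-fold. The capitals mark matches to GGGCGG and CCAAT on either strand. Lama2 lies at chr10:27616893-27617192 on the minus strand and Col16a1 at chr4:130047590-130047889 on the plus strand, both in GRCm38.p6.
Lama2: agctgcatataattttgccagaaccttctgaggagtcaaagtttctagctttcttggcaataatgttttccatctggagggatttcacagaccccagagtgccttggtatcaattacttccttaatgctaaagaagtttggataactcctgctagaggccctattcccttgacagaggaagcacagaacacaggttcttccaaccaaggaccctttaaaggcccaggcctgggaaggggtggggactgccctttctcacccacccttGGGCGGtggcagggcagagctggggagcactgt
Col16a1: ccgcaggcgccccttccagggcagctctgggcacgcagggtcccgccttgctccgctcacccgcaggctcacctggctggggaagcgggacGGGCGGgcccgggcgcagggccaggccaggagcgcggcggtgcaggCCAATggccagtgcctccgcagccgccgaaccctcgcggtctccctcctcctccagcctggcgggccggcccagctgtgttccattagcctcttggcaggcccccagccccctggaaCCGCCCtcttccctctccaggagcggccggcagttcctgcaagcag
The Lama2 window holds 1 match to GGGCGG and is 50.3% G and C. The Col16a1 window holds 2 matches to GGGCGG and 1 to CCAAT and is 74.3% G and C. RefSeq windows were matched for 41 of the 68 compared matrix genes (47 windows), of which 70.2% hold GGGCGG, 38.3% CCAAT, 10.6% TATAAA and 4.26% TGANTCA. The shares over 8629 windows of all compared genes were 64.2%, 37.8%, 6.93% and 4.77%.

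**Figure D2:**
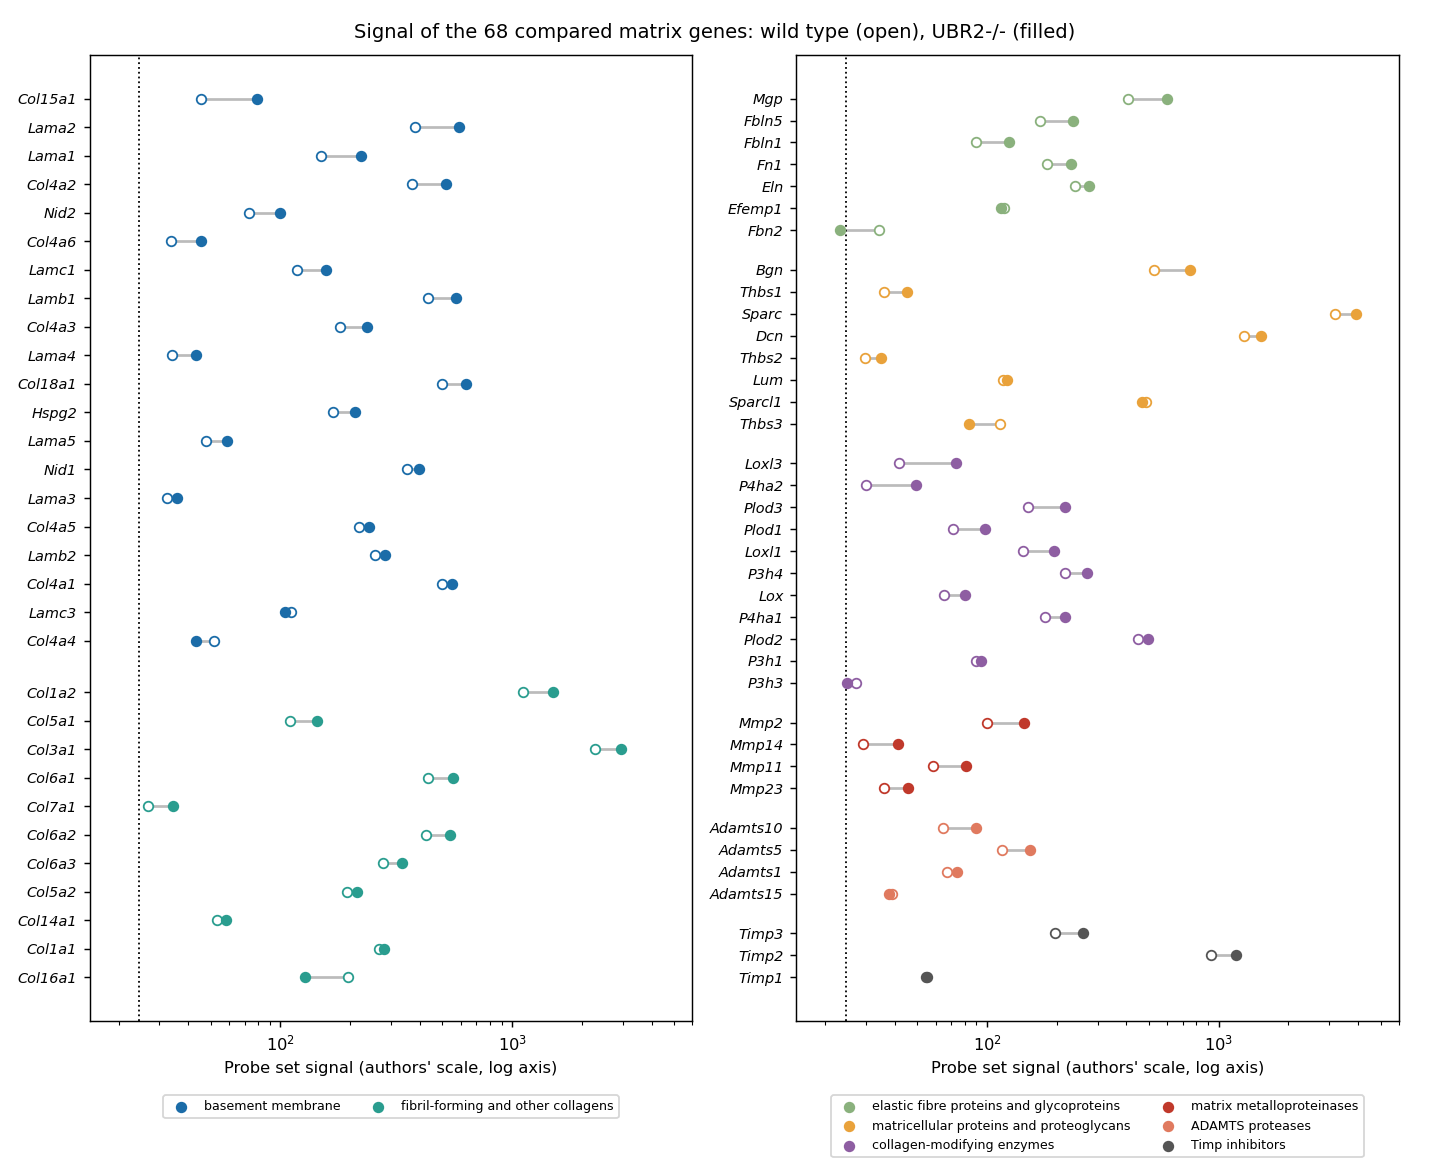
Signal on the authors' scale (log axis) on the wild type array (open circles) and the UBR2-/- array (filled circles) for the 68 compared matrix genes, grouped by role (colour) and ordered by ratio within each role, with the mean floor of 24.55 as a dotted line; signals of different genes come from different probes and are not levels relative to each other. The filled circle lies to the right for 58 genes and to the left for 10, among them Col16a1, Thbs3 and Fbn2, and with control transcript scaling it would lie to the right for 33 of 69.

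Among the elastic fibre proteins and glycoproteins, 5 of 7 compared members exceeded the overall median. Mgp, which encodes an inhibitor of matrix calcification, had signals of 407 and 601.2 (0.56, 1.48-fold). The fibulins Fbln5 and Fbln1, which take part in elastic fibre assembly and in basement membranes, had 169.4 and 235.8 (0.48) and 89.7 and 124.1 (0.47). The dimmer probe set of Fbln1 had 0.04. Fn1, the gene of the adhesion protein fibronectin, had 180.7 and 230.4 (0.35). Elastin, Eln, had 0.20 in its brighter probe set and 0.22 in the other. Below 0 were Efemp1 (118.1 and 115, -0.04) and the fibrillin gene Fbn2, which was dim at 34.1 and below the floor at 23.1, which makes it at least 1.38-fold lower.

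Matricellular proteins and proteoglycans were the structural role with the lowest median, 0.23, and 5 of 8 compared members exceeded the overall median. Sparc, a collagen-binding protein made by Sertoli and Leydig cells, had 3184.8 and 3899.6, with 0.29 in both of its probe sets. This ratio depends on the scaling. Sparc had 0.09 with scaling to quantiles and 0.10 with loess, where the medians of all genes were 0.07 and 0.02. Its relative Sparcl1 lay below the median of all genes with 487.2 and 467 (-0.06). The small proteoglycans that bind collagen fibrils went from the X-linked Bgn at 0.52 (524.1 and 750.5) over Dcn at 0.24 (1288.9 and 1517.4) to Lum at 0.06 (117.1 and 121.8). The 3 probe sets of Bgn were nearly equal, all between 0.51 and 0.52. The thrombospondins, adhesion-modulating proteins of the matrix, pointed both ways. Thbs1 had 0.33 in a dim probe set and -0.12 in another, Thbs2 had 0.23 (29.8 and 35), and Thbs3 had 114 and 83.9 (-0.44, 1.36-fold lower).

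Of the 12 genes grouped as collagen-modifying enzymes, 11 were compared and 9 exceeded the overall median. The median was 0.31, which is the value of P3h4. The 3 compared lysyl oxidases, which start the cross-linking of collagen and elastin, exceeded the overall median. Loxl3 had signals of 41.8 and 73.3, the highest ratio of all members (0.81, 1.75-fold), Loxl1 had 143.6 and 195.3 (0.44) and Lox had 65.3 and 80.5 (0.30). The prolyl 4-hydroxylase subunits, which stabilise the triple helix, had 0.71 for P4ha2 (30.1 and 49.2, 1.63-fold) and 0.29 for P4ha1 (177.3 and 216.8). Of the lysyl hydroxylases, whose products prepare collagen for cross-links, Plod3 had 149.6 and 216.4 (0.53), Plod1 had 71.5 and 97.7 (0.45) and Plod2 had 450 and 495.9 (0.14). In the prolyl 3-hydroxylase family, P3h4, a member that works with lysyl hydroxylase, had 0.31, P3h1 had 0.07 and P3h3 had -0.13. The other probe set of P3h1 had 0.23. P3h3, with signals of 27.1 and 24.8, was only just above the floor. The 2 enzymes past 1.5-fold were both dim.

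Proteases were mostly too dim to compare: 8 of 25 passed, against 46 of 69 structural genes and 11 of 12 enzyme genes. Of 18 matrix metalloproteinase genes 4 were compared, and all 4 had ratios above the overall median. Mmp2, which encodes a gelatinase that cuts collagen IV, had signals of 100.4 and 143.8 (0.52), and its other probe set had 0.60. Mmp14, a membrane protease that activates the product of Mmp2, had 29.2 and 41.2 (0.50). Mmp11 had 58.5 and 80.8 (0.47). Mmp23 had 35.8 and 45.8 (0.36) in 1 probe set and 37 and 29.6 (-0.32) in its other, so its side is not settled by these data. Of 7 ADAMTS genes 4 were compared. Adamts10, which is linked to microfibrils, and Adamts5, which cuts large proteoglycans, had 0.48 (64.3 and 89.5) and 0.40 (115.6 and 152.7), Adamts1, another protease of proteoglycans, had 0.14 and Adamts15 had -0.04.

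The inhibitors were represented by 3 of 4 TIMP genes. Timp2, whose product inhibits MMP2 and also takes part in its activation, had 930.8 and 1191.1 (0.36), with 5 bright probe sets from -0.02 to 0.36. Timp3, whose product binds to the matrix, had 195.8 and 261 (0.41), with 4 probe sets from -0.07 to 0.57. The X-linked Timp1, an inhibitor of most metalloproteinases, had 55 and 54.7 (-0.01) and lay under the overall median.

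Structure, proteases and inhibitors had similar medians when each gene was read by its brightest probe set. The median log2 ratio was 0.32 for 46 structural genes, 0.43 for 8 proteases, 0.36 for 3 inhibitors and 0.31 for 11 enzymes. The structural median was 0.11 below that of the proteases (difference -0.11) and 0.03 below that of the inhibitors (-0.032). A test of these differences was not possible with 1 array per genotype. In their brightest probe sets, Mmp2 and its inhibitor gene Timp2 had ratios 0.16 apart, and Mmp2 and its activator Mmp14 were 0.02 apart (0.022). The distance between Mmp2 and Timp2 depends on the probe set. The other bright probe sets of Timp2 had 0.29, 0.19, 0.19 and -0.02, and that of Mmp2 had 0.60. Averaged over probe sets, the inhibitor median was 0.20, against 0.48 for metalloproteinases and 0.22 for ADAMTS proteases.

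The other 42 members were too dim on these arrays, and for them no ratio is given. They include Lamb3, Tnc, Vcan, Loxl4, Timp4, Thbs4, Fbln2 and Fbln7, all below the floor on both arrays. The 7 chains of the cartilage-type collagens (Col2a1, Col9a1, Col9a2, Col9a3, Col10a1, Col11a1 and Col11a2) were all in this class. The same held for all 9 Mmp genes that the gene table places on chromosome 9 (Mmp1a, Mmp1b, Mmp3, Mmp7, Mmp8, Mmp10, Mmp12, Mmp13 and Mmp20), with signals from 0.3 to 7.8. Mmp9, the other gelatinase gene, had 9.9 and 12.3. Just outside the limit was Col20a1 with signals of 36.4 and 12.4, and just inside was P3h3. A signal below the floor does not show that a transcript was absent.

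Probe sets gave the same picture as genes. Of 174 matrix probe sets 105 were bright enough, their median log2 ratio was 0.27 against 0.06 for 12618 probe sets of all genes, and 87 (82.9%) lay above the latter. Of the 29 compared genes with more than 1 bright probe set, 23 had all of them on the same side of 0. Those with probe sets on both sides were Lamc3, Col5a2, Thbs1, Mmp23, Timp2 and Timp3. The distance was similar in all brightness classes. Matrix genes were 0.24 above all genes of the same class in the dim, 0.25 in the intermediate and 0.29 in the bright class. In the intermediate class 16 of 17 matrix genes and in the bright class 16 of 17 were above what was typical (the median) of all genes in that class, and in the dim class 24 of 34. Chromosome X held 4 compared members, Bgn, Col4a5, Col4a6 and Timp1, and all 274 compared X-linked genes had a median of 0.35. Without the 4, the median of the 64 autosomal matrix genes was 0.34.

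Genes of the same biology that the naming rule does not reach gave medians above that of all genes as well. Other secreted matrix proteins, 27 of 34 compared, had a median of 0.37, with 20 above the overall median, 6 at least 1.5-fold higher (22.2%, against 4.25% of all genes) and 0 at least 1.5-fold lower (against 7.71%). Among them were Ltbp1, which anchors latent TGF-beta in the matrix (62 and 114.6, 0.89), Tgfbi, a collagen-binding protein induced by TGF-beta (180.9 and 294.9, 0.71), and Tinagl1, a basement membrane protein that was under the wild type floor and at least 1.58-fold higher. Postn, a matricellular protein, had 99.2 and 90.3 (-0.14). Genes of collagen folding and maturation, 10 of 12 compared, had a median of 0.35, with 8 above the overall median and 1 at least 1.5-fold higher (10%, against 4.25% of all genes). That was Bmp1, the protease that trims procollagen (33.3 and 61, 0.87), while the collagen chaperone Serpinh1 had 186.6 and 267.9 (0.52), P4hb, a subunit of prolyl 4-hydroxylase, had 0.34 and the folding enzyme Ppib had 0.43.

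Receptors that bind cells to matrix, 13 of 21 compared, had a median of 0.31, with 10 above the overall median. The syndecan Sdc4, a heparan sulfate co-receptor, had 363.7 and 738.8 and was 2.03-fold higher (1.02), and its relative Sdc2 had 0.56. Itgb1 and Itga6, which together form a laminin receptor, had 0.32 each. Other proteases and inhibitors that act on matrix, 13 of 18 compared, lay closest to all genes, with a median of 0.14, 8 above the overall median and 0 past 1.5-fold in either direction (against 4.25% of all genes higher and 7.71% lower). Plat, the tissue plasminogen activator, had 0.15, the serine protease inhibitor gene Serpina5 had -0.13, and Ctsb, Spock2 and the cathepsin inhibitor gene Cst3 each had 0.37.

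Markers of the cells that hold or surround matrix were measured beside these genes. In whole testes, more cells of a type and more RNA per cell cannot be told apart. Peritubular myoid markers were all above the overall median in the 9 of 10 that were compared, with a median of 0.50, and the signals of all 10 summed to 2667 and 3822.5. The contractile genes Acta2 and Myh11 had 0.49 and 0.64, and Tpm2 and Mylk had 0.59 and 0.57. Of 16 Sertoli markers, all compared, 13 exceeded the overall median, with a median of 0.33 and sums of 13307.3 and 16942.2. Sox9, a transcription factor of Sertoli fate, had 0.29, the receptor gene Fshr 0.58, Gata4 0.52 and the hormone gene Amh -1.23. Endothelial markers, 9 of 12 compared and all dim, had a median of 0.30, with 6 above the overall median and 3 below it. Pecam1 was at least 1.21-fold lower, Cdh5 had 0.41, Cldn5 had 0.94 and Kdr was at least 1.51-fold higher. Vwf, Flt1 and Tie1 were below the floor on both arrays. The signals of all 12 summed to 339.6 and 428.4.

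Leydig markers had a median of 0.21 over 8 genes (sums 1647.2 and 1852.1), with Star at 0.80, Cyp17a1 at 0.12, Cyp11a1 at -0.59 and Akr1c14 at -0.51. Fibroblast markers had a median of 0.09 over 7 of 8 genes (sums over all 8 genes, 2233.6 and 2551.3), with Pdgfra, also in the Leydig list, at 0.46, Tcf21 at 0.09, Clec3b at 0.75 and Cd34 at 0.14. Macrophage markers had a median of -0.18 over 11 of 12 genes (sums over all 12 genes, 1062 and 979.6), with Csf1r at -0.02, Adgre1 at -0.24, Ptprc at least 1.54-fold higher, Fcer1g at -0.43 and Laptm5 at -0.39. Spermatogonia markers had a median of 0.14 over 8 of 9 genes (sums over all 9 genes, 3512.3 and 3629), with Zbtb16 at 0.02, Kit at -0.07, Stra8 at 0.50, Id4 at -1.07 and Dmrtb1 at -0.82. Late spermatocyte markers lay far on the other side. All 15 had ratios under the overall median, 14 were at least 1.5-fold lower (93.3%, against 7.71% of all genes), the median was -1.44 and the sums were 13571.5 and 4720.8. The germ cell lactate dehydrogenase gene Ldhc had 3709.3 and 430.5 (-3.11), Hspa2 had -0.90 and Crisp2 had -3.90, while Adam3 was at least 10.8-fold lower and Piwil1 had -2.88. The part of any of these cell types in the matrix ratios was not tested.

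**Figure D3:**
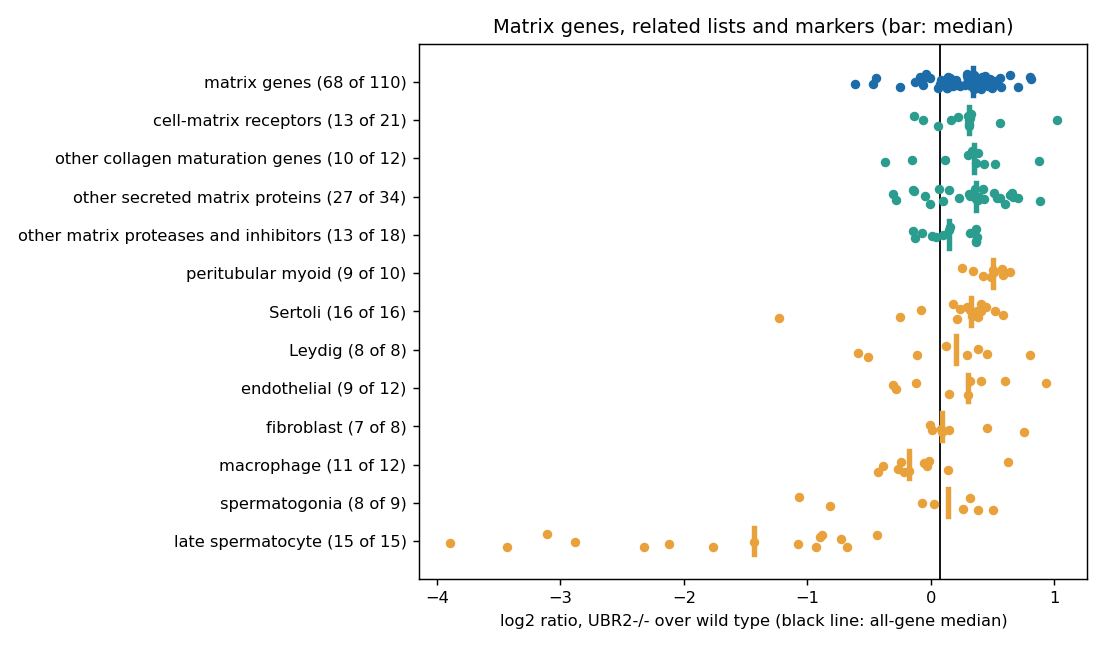
Log2 ratios (UBR2-/- over wild type, x axis) of the compared genes of each list, with the number compared of those found, for matrix genes (blue), related genes outside the naming rule (green) and cell type markers (orange), the thick bar being the list median and the black line the median of all compared genes at 0.07. The matrix median (0.34) lies to the right of the line, and 12 of the 68 matrix genes lie to its left. Also to the right are the medians of the myoid (0.50), Sertoli (0.33), endothelial (0.30), Leydig (0.21), spermatogonia (0.14) and fibroblast (0.09) markers. The macrophage median (-0.18) lies to the left, and late spermatocyte markers reach from -0.43 to -3.90. Scaling on control transcripts would move every point and the line by -0.35.

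The place of matrix genes above all genes was then computed under 9 other ways of processing the same 2 arrays. The distance between the matrix median and the median of all genes ran from 0.21 to 0.28, and all 8 roles had medians above that of all genes in each of the 10 settings. Scaling to array medians or on control transcripts shifts all genes alike and so hardly bears on this distance. With the floor at the 60th percentile the metalloproteinases and the ADAMTS proteases were each left with 1 gene. Some roles came close to all genes. With the floor at the 25th percentile the distance was 0.06 for other collagens and 0.07 for ADAMTS proteases. With scaling to quantiles it was 0.08 for matricellular proteins and proteoglycans. Of the 68 genes, 52 exceeded the overall median under every setting that gave them a value, 11 lay below it under every such setting and 5 changed sides (Col3a1, Col5a2, Fbln1, P3h1 and Mmp23).

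**Figure D4:**
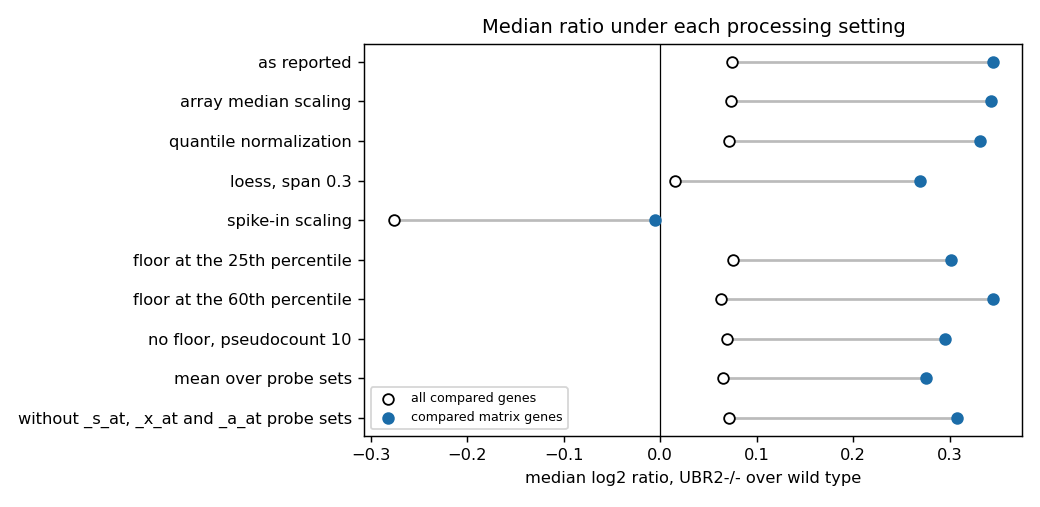
Median log2 ratio (x axis) of the compared matrix genes (filled) and of all compared genes (open) as reported and under 9 alternative settings. The distance between both circles stays between 0.21 and 0.28, while scaling on control transcripts (spike-in scaling) moves the pair to -0.0056 and -0.28.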

How the data were processed

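Testes of 17 day old mice were read on 1 array for each genotype. The deposited files hold 1 linear intensity for each probe set, scaled by the authors. MAS5 is named in the submitters' processing notes, and no version, setting or detection call was given in the sources used here. The 2% trimmed means of the deposited arrays were 150.04 each. Of 22690 probe sets, 64 were controls, and of the rest 20380 had 1 symbol, 691 several and 1555 none in GEO's annotation of the platform, some of it perhaps outdated. Both probe sets with several symbols that include a matrix gene were left out. All 110 member symbols equal those of the RefSeq table (GRCm38.p6), which gave chromosomes and promoter windows. Floors, the brightest probe set, thresholds of 1.5-fold and 2-fold and log2 ratios were computed in Python 3.11.15 with numpy 2.4.6 and pandas 2.3.3, and loess with statsmodels 0.14.6. The calculation was checked on simulated data with known changes. The members and all lists were chosen with earlier results of these data known. Any member may be named, and from other lists the first 2 compared genes and the 3 farthest from 0, while Vwf, Flt1, Tie1 and Piwil1 were named after their values were seen. The number of arrays sets the precision.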

Additional observations from a re-analysis of the deposited data

How the results depend on the processing

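The alternatives were scaling to array medians, to quantiles, by loess (span 0.3) and on 45 probe sets of control transcripts. Floors at the 25th and 60th percentiles and a pseudocount of 10 without a floor were also used. The rest were averaging the probe sets of a gene, and dropping probe sets that may bind more than 1 transcript. The distance of matrix genes from all genes, and their share above the median of all genes, were added after seeing the data, and that share ran from 73.3% (floor at the 25th percentile) to 86.4% (60th). Scaling on control transcripts took the matrix median to -0.0056, the structural median to -0.028, the enzyme median to -0.035, the protease median to 0.086 and the inhibitor median to 0.0083, with 0 genes at least 1.5-fold higher and 5 lower. This follows from its shift of all genes by -0.35. With that shift, 0.47% of all genes were at least 1.5-fold higher and 19.98% lower. The floor at the 25th percentile, which admits 22 more dim matrix genes, gave 7 of 90 at least 1.5-fold higher and 6 lower. The shares of all genes were 7.04% and 8.90%. Past 2-fold, 1 was higher and 3 were lower, and the shares of all genes past 2-fold were not computed at this floor. With the floor at the 60th percentile, which leaves 44 matrix genes, 1 was at least 1.5-fold higher, against 2.19% of all genes. With the pseudocount, and after dropping those probe sets, 0 were at least 1.5-fold lower, against 6.80% and 7.80% of all genes. Control transcript scaling also took the medians of several groups below 0. These were basement membrane genes (-0.0017), other collagens (-0.037), matricellular proteins and proteoglycans (-0.11), ADAMTS proteases (-0.075), type IV (-0.083) and type VI collagen (-0.0005). Under that scaling 33 of 69 matrix genes, in place of 58 of 68, lay above 0. Under the other 8 alternatives, the medians of all matrix genes, structural genes, enzymes, proteases and inhibitors kept their direction and moved by less than the SD of 1 probe set (0.21). Of 584 ratios of single genes under alternatives, 510 moved by less than that SD, 74 by more. The 74 include all 68 genes under control transcript scaling, whose shift of -0.35 is larger in size than that SD. No paired analysis was possible because each genotype has 1 array. Dim members, close to the floor, are the least certain.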
